A study of Mus musculus with 13 samples.

Results

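Transcripts of 10 basement membrane genes were followed in mouse quadriceps: the collagen IV chains Col4a1 and Col4a2, the laminin chains Lama2, Lama4, Lamb2 and Lamc1, the nidogens Nid1 and Nid2, the heparan sulfate proteoglycan Hspg2 (perlecan) and the collagen XV chain Col15a1. The genes were chosen by name, and all 10 were found among the 24015 genes of the deposited table. The study asked how muscle changes with age and with SW033291, which blocks 15-PGDH, the enzyme that breaks down prostaglandin E2. RNA from whole muscle lysates of C57BL/6 mice was sequenced in 13 libraries. Young mice of 3 months on vehicle gave 4 libraries (replicates 1, 3, 4 and 5) and aged mice, labelled as older than 24 months, gave 3 libraries on vehicle (replicates 2, 3 and 4), all in batch 1. In batch 2, aged mice gave 3 libraries on vehicle (replicates 2, 3 and 8) and 3 on SW033291 at 5 mg/kg (replicates 1, 4 and 6). Every mouse, young ones included, received a daily intraperitoneal injection for 4 weeks, and the vehicle was a mixture of ethanol, Cremophor EL and dextrose in water. The labels do not say whether each library came from 1 animal or from several, nor what a batch stands for, and p-values therefore reflect only how these libraries vary, which may be technical. Young and SW033291 libraries exist in 1 batch each, so a difference between a batch 1 group and a batch 2 group cannot be told apart from batch, and SW033291 was not given to young mice.

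The basement membrane is a thin sheet of matrix around each muscle fibre and each capillary. Laminins, trimers of an alpha, a beta and a gamma chain, assemble on the cell surface and bind dystroglycan and integrins. Collagen IV forms a second network of triple helices built in most tissues from alpha 1 and alpha 2 chains, and nidogens and perlecan link the networks to each other. In muscle, laminin with the alpha 2 chain lies around the fibres and is the chain lost in a congenital muscular dystrophy, whereas the alpha 4 chain is a main chain of blood vessels. Collagen XV sits at the outer face of the sheet, toward the fibrillar matrix.

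Col4a1 and Col4a2 lie head to head, and because their transcripts followed each other more closely than those of any other pair of members, their start regions are shown. RefSeq on the build GRCm38.p6 places the window from 250 bases before to 50 bases after the start of Col4a1 at chr8:11312777-11313076 on the minus strand, and that of Col4a2 at chr8:11312555-11312854 on the plus strand. The annotated starts, at 11312826 and 11312805, are 21 bases apart. Each start lies inside the other gene as annotated, so the genes overlap at their starts and have no gap between them. The windows share 78 bases, printed in capitals and read from opposite strands.
Col4a1: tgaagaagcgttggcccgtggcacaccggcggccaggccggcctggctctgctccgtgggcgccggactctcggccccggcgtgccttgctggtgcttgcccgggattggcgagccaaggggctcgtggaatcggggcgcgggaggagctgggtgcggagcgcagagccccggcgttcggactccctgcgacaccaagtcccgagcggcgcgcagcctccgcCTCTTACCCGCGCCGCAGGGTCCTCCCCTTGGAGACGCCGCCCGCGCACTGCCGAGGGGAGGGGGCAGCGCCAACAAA
Col4a2: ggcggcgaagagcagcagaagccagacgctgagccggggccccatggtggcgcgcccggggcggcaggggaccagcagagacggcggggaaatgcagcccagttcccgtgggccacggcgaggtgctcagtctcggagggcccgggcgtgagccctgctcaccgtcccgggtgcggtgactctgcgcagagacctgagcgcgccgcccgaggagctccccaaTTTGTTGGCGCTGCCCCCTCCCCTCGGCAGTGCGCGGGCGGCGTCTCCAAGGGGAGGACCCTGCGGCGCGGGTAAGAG

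A start region was found for 7 of the 10 members. GC content was 74.0% in the Col4a1 window and 73.7% in that of Col4a2, against 44.0% for Lamb2, the lowest of the 7. On either strand, the letters CCAAT occurred 1 time in each of the windows of Col4a1, Col4a2 and Nid1, and in 37.4% of the 32851 mouse windows of the same length. GGGCGG occurred 1 time for Col4a1, 3 times for Col4a2, 5 times for Hspg2 and 1 time each for Lama2 and Nid1, and in 35.7% of all windows. TATAAA was in none of the 7 windows and in 13.6% of all. These are matches of letters only, and none of the searched motifs contains another.

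Values are TPM (transcript abundance scaled to a fixed total per library), which are scaled for transcript length and therefore allow levels of different genes to be compared, but keep no record of read depth. The names of the deposited table had been separated from their values and were put back before use. Comparisons were made with limma on log2(TPM + 1), a scale that understates the change of low genes, over the 11876 genes that reached 1 TPM in 3 or more libraries. All 10 members passed this filter. Fibre genes such as Acta1 and Ckm, the labelled tissue's own markers, summed to between 170850 and 215280 TPM per library. Some libraries stood apart: S100a9, a neutrophil gene, was at 735.6 TPM in aged vehicle replicate 4 of batch 1, 290.2 in aged vehicle replicate 2 of batch 2 and 78.21 in SW033291 replicate 4, and at most 6.39 in the other 10. Member differences that moved by more than 1.5 times, or changed sign, without these 3 libraries are given beside the comparison or in the closing section. For age, leaving them out amounts to leaving out aged replicate 4. In whole muscle, fewer cells of a type and less RNA per cell cannot be told apart.

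Levels differed widely among the members. Lamb2, the beta 2 laminin chain, was the highest member in all 13 libraries, with a median of 45.5 TPM. Col4a1 (20.3), Col4a2 (19.5), Hspg2 (16.5) and Lamc1 (13.6) followed in median TPM, then Nid1 at 9.25. These neighbours in the order overlapped in range. Lama2 and Lama4 had the same median of 4.59 TPM and Col15a1 a median of 3.98. Nid2 was lowest in 12 of 13 libraries, with a median of 2.14 TPM. The exception was SW033291 replicate 6, where Col15a1 stood at 0.49 TPM and Nid2 at 0.93. Col15a1 also spanned the widest range, 13.9-fold from lowest to highest library, while Lama2 spanned the narrowest, 2.21-fold.

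**Figure D1:**
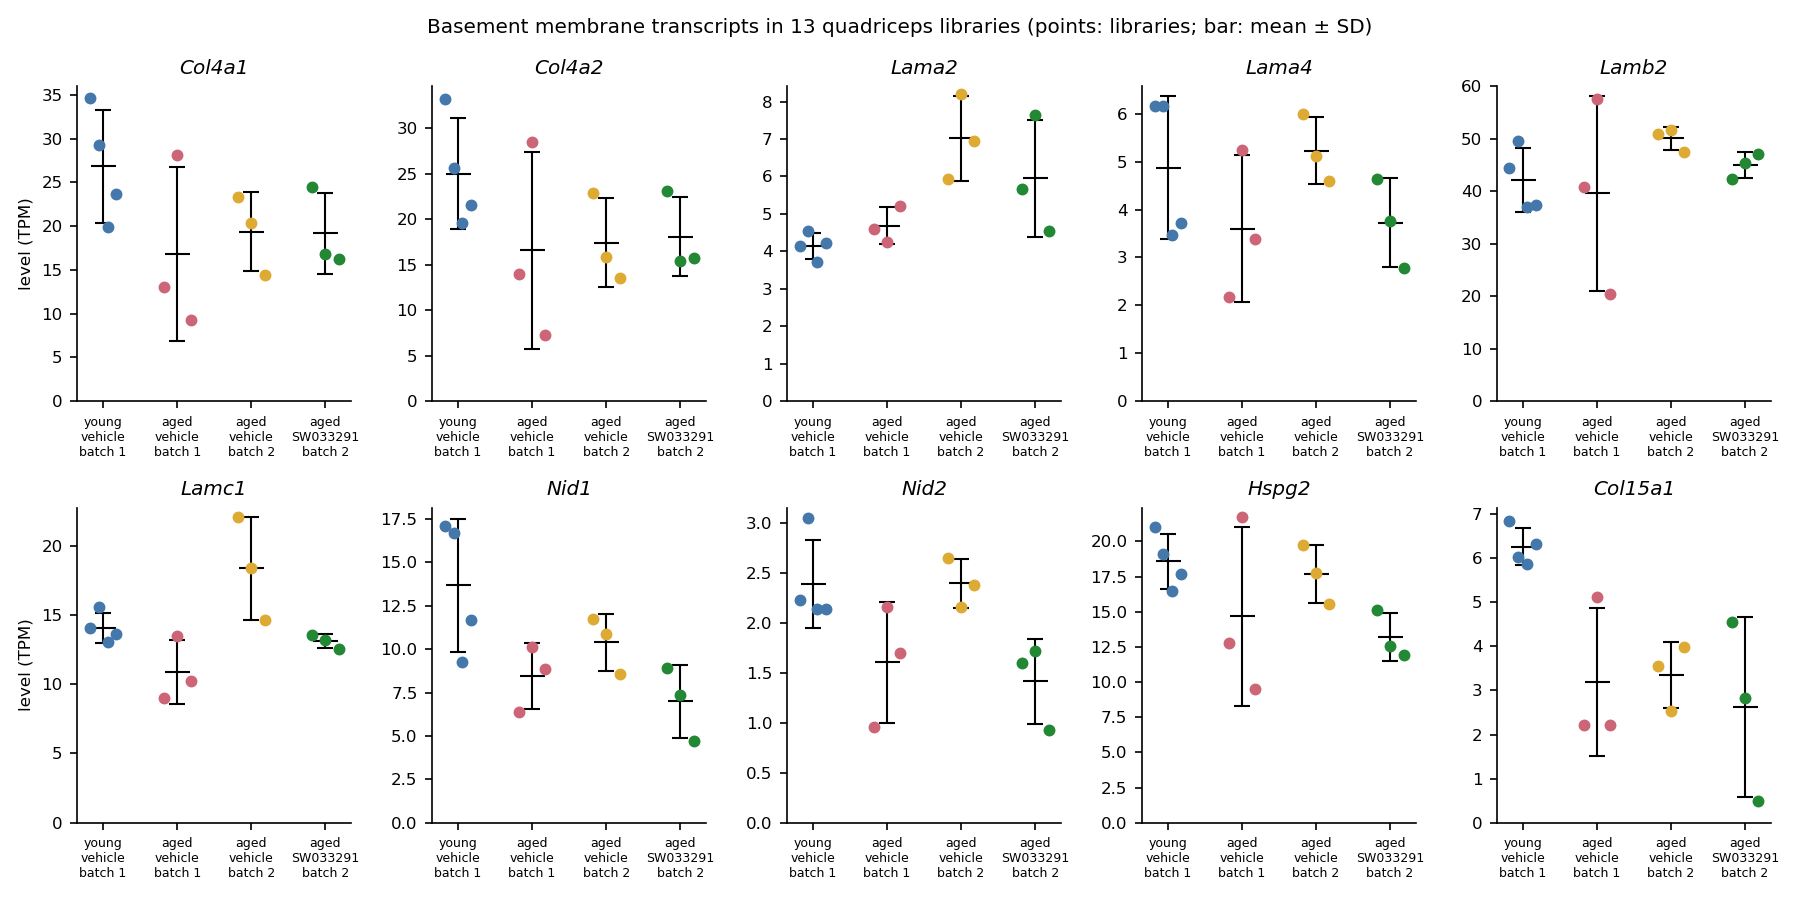
TPM of the 10 members on linear axes from 0, with 1 point per library, 1 column per group and bars for the mean ± SD. Col15a1 is the panel in which all aged vehicle points lie below all young points, and aged vehicle of batch 1 has the widest spread for the collagen IV chains.

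With age, 9 of 10 members had a lower mean in aged than in young vehicle of batch 1, and none passed an adjusted p of 0.05, the threshold that 0.455% of all genes passed. A log2 difference below 0 was found for 38.8% of all genes. The median log2 difference was -0.39 over the members and 0.06 over all genes tested. At an unadjusted p of 0.05, 5 members passed (Col4a1, Col4a2, Lamc1, Nid1 and Col15a1), and 9.92% of all genes. The number of such members depended on single libraries: it was 0 with young replicate 1 or aged replicate 2 left out, 1 with young replicate 3 or aged replicate 4 left out, 2 with young replicate 5 left out and 9 with aged replicate 3 left out. Col15a1 was the 1 member whose aged libraries all lay below the young ones, as did 2.7% of all genes.

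Both collagen IV chains were highest in young replicate 1 and lowest in aged vehicle replicate 4 of batch 1. Col4a1 was at 34.61, 29.22, 19.92 and 23.62 TPM in the young libraries (replicates 1, 3, 4 and 5). It was at 13.1, 28.07 and 9.24 TPM in aged vehicle replicates 2, 3 and 4 of batch 1. Replicates 2 and 4 lay below every young library, whereas replicate 3 lay within the young range. The log2 difference was -0.76 (SE 0.30, limma adjusted p = 0.386), with a 95% interval from -1.41 to -0.11. Col4a2 was at 33.26, 25.65, 19.53 and 21.59 TPM in young and at 14.03, 28.49 and 7.3 TPM in aged libraries, in the same order, and the same aged library overlapped the young ones. The log2 difference of Col4a2 was -0.72 (SE 0.34, limma adjusted p = 0.504). Without aged replicate 3, the differences were -1.18 for Col4a1 and -1.19 for Col4a2 (limma adjusted p = 0.073 and 0.115), and the members' median was -0.66. Without aged replicate 4 they were -0.43 and -0.28, and the members' median was -0.34. Against aged vehicle of both batches, the members' median was -0.21, with 8 of 10 members lower.

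Among the laminin chains, Lama2 was the member with a higher mean in aged muscle. Young libraries held 4.13, 4.54, 3.71 and 4.21 TPM, and aged vehicle of batch 1 held 4.59, 4.25 and 5.22 TPM. The groups overlapped, and the log2 difference of 0.14 (SE 0.17, limma adjusted p = 0.870) had a 95% interval from -0.23 to 0.51. It was 0.076 without aged replicate 4 and 0.39 against aged vehicle of both batches. Lama4, the vessel-associated alpha chain, was at 6.17, 6.15, 3.47 and 3.71 TPM in young and at 2.18, 5.24 and 3.39 TPM in aged libraries. For Lama4 the log2 difference was -0.37 (SE 0.25, limma adjusted p = 0.717). Lamc1, the gamma 1 chain shared by most laminins, averaged 14.1 ± 1.09 TPM (SD, n = 4) in young and 10.9 ± 2.29 TPM (SD, n = 3) in aged libraries, with a log2 difference of -0.36 (SE 0.16, limma adjusted p = 0.468). Against aged vehicle of both batches, the difference of Lamc1 was -0.0041. Lamb2 averaged 42.1 ± 6.07 and 39.6 ± 18.6 TPM, because aged replicate 4 was at 20.49 and aged replicate 3 at 57.53. Its log2 difference of -0.19 (limma adjusted p = 0.881) became 0.21 without aged replicate 4.

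The linkers showed the same order of means. Nid1 was at 17.1, 16.68, 9.25 and 11.69 TPM in young and at 6.38, 10.1 and 8.84 TPM in aged libraries, so that 2 of 3 aged libraries lay below the lowest young one. Its log2 difference was -0.62 (SE 0.24, limma adjusted p = 0.364). Nid2 averaged 2.39 ± 0.442 TPM in young and 1.61 ± 0.605 in aged libraries, a log2 difference of -0.40 (SE 0.21, limma adjusted p = 0.580). Hspg2 averaged 18.6 ± 1.95 and 14.7 ± 6.34 TPM, with aged replicate 3 at 21.74 above every young library. The difference was -0.39 on the log2 scale (SE 0.21, limma adjusted p = 0.607), and it was -0.70 without aged replicate 3 and -0.14 without aged replicate 4.

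Col15a1 had the lowest ratio of group means, 0.509. Young libraries held 6.83, 6.03, 5.86 and 6.32 TPM, and aged vehicle of batch 1 held 2.22, 5.12 and 2.22 TPM. The log2 difference was -0.86 (SE 0.36, limma adjusted p = 0.419), with a 95% interval from -1.64 to -0.09. The aged libraries of batch 2 were also below the young range, at 3.56, 2.53 and 3.98 TPM on vehicle and at 4.55, 2.83 and 0.49 TPM on SW033291, so that all 9 aged libraries lay below all 4 young ones across both batches, as did those of 0.783% of all genes. With the aged vehicle libraries of both batches set against the young ones, the log2 difference was -0.81 (limma adjusted p = 0.166). In the authors' deposited table for age, which lists 813 genes with an adjusted p of at most 0.0999, Col15a1 had a log2 fold change of -1.07 (SE 0.24, adjusted p = 0.00109) and Nid1 one of -0.67 (SE 0.19, adjusted p = 0.0197). The other 8 members are not among the genes of that table.

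**Figure D2:**
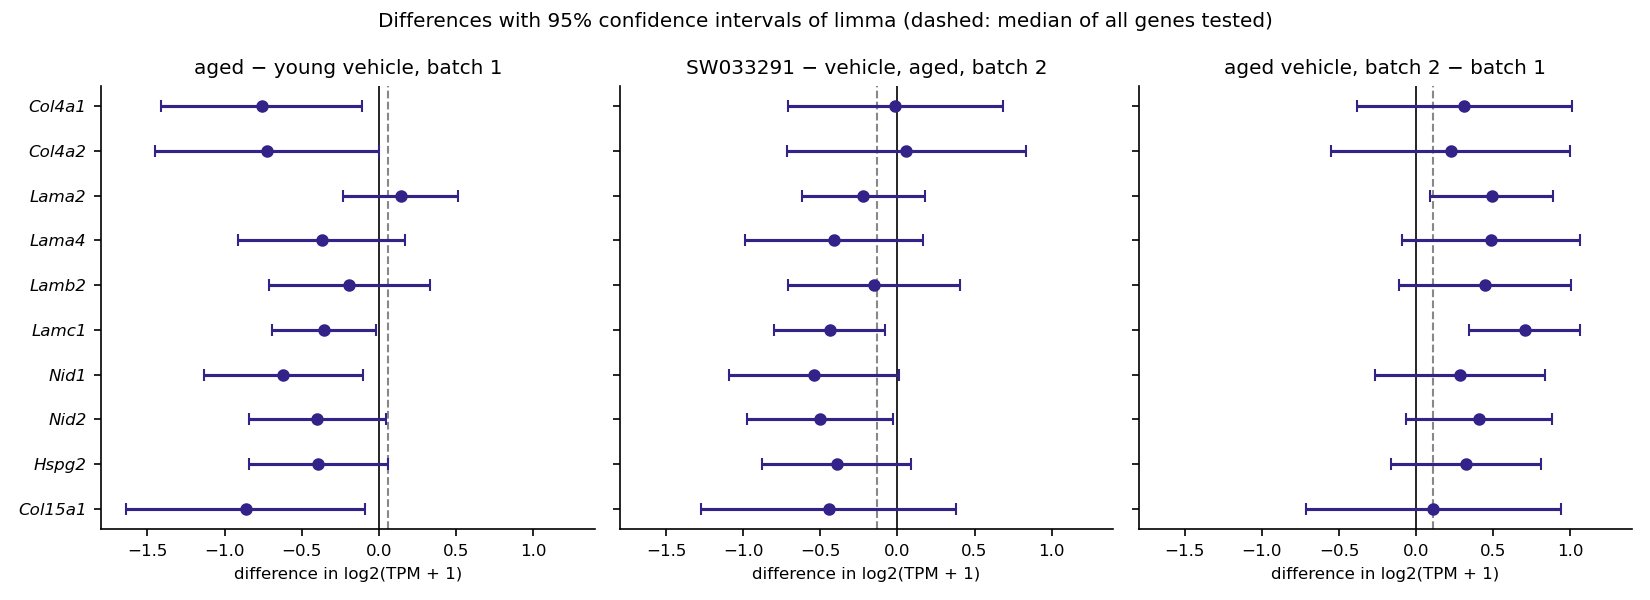
Log2 differences on the log2(TPM + 1) scale for each member in the comparisons of age, SW033291 and batch, with 95% intervals from limma and a dashed line at the median of all genes tested. In the age panel 9 of 10 points lie left of 0, in the SW033291 panel the collagen IV chains lie near 0, and in the batch panel all 10 points lie right of 0.

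Within batch 1 the aged libraries differed more among themselves than the young ones did. Relative to the young mean, the members' median per library was 0.14, 0.14, -0.16 and -0.13 in young replicates 1, 3, 4 and 5. It was -0.77, 0.06 and -0.72 in aged vehicle replicates 2, 3 and 4. In those 3 libraries 8, 1 and 9 of the 10 members were below the lowest young library, as were 32.9%, 15.3% and 24.4% of all genes tested. The median over all genes on the same scale was -0.06, 0.10 and 0.14. Endothelial markers, of which all 12 were measured and none was at 0 in every library, had medians of -0.38, 0.31 and -0.58 in the same aged libraries. Their summed level ran from 190 to 263 TPM in young and from 134 to 274 TPM in aged vehicle of batch 1, and all 12 had a lower mean with age (median -0.23, none called). The 10 markers of pericytes and smooth muscle had medians of -0.45, 0.32 and -0.99, a summed level of 175 to 268 TPM in young and 162 to 294 TPM in aged libraries, and a lower mean for 8 of 10. The 10 markers of fibro-adipogenic cells had medians of -1.09, -0.28 and -0.32, with sums of 821 to 1179 TPM in young and 446 to 785 TPM in aged libraries, and all 10 had a lower mean (median -0.57, none called). Medians of the endothelial list and of the pericyte and smooth muscle list were thus low in the same aged libraries as the members. Not every gene followed, as Abcc9 was at 55.92 TPM in aged replicate 4, above every young library. The fibro-adipogenic sum was below every young library in all 3 aged libraries. By median, aged replicate 3 (-0.277) was within the young range, the lowest of which was -0.281 in young replicate 4. Cdh5, the endothelial marker with the largest difference, had a log2 difference of -0.46 (limma adjusted p = 0.711). Pdgfrb, of the pericyte and smooth muscle list, had one of -0.53 (limma adjusted p = 0.597). Both were lowest in aged replicate 4, at 14.05 and 3.83 TPM, and above every young library in aged replicate 3, at 46.86 and 11.7 TPM. Rgs5 and Abcc9 were the 2 of the latter list with a higher mean, at 0.15 and 0.11. Pi16, a fibro-adipogenic gene, had a difference of -1.53 (limma adjusted p = 0.196). Of other cell types, macrophage markers summed to 32.7 to 110 TPM in young and 39.4 to 62.9 TPM in aged vehicle of batch 1, Schwann markers to 41.4 to 82.0 and 23.6 to 104 TPM, and neutrophil markers to 0.88 to 2.92 and 0.87 to 1766 TPM. All 8 adipocyte markers had a lower mean with age (median -0.60, none called). Their sum was 3151 and 2144 TPM in young replicates 1 and 3, where the members' median was 0.14, and 657 and 855 TPM in young replicates 4 and 5. In aged vehicle of batch 1 it ran from 768 to 1349 TPM. Red cell markers summed to 314 to 658 TPM in young and 297 to 3764 TPM in aged libraries, the highest in aged replicate 4. Of 7 tested, 5 had a higher mean, and Hba-a1, a globin gene, was called higher (limma adjusted p = 0.018). Its partner globin Hba-a2 had a log2 difference of -0.39 (limma adjusted p = 0.971). The young means were 4.91 TPM for Hba-a1 and 275 TPM for Hba-a2. The part of these cells in the age differences was not tested.

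**Figure D3:**
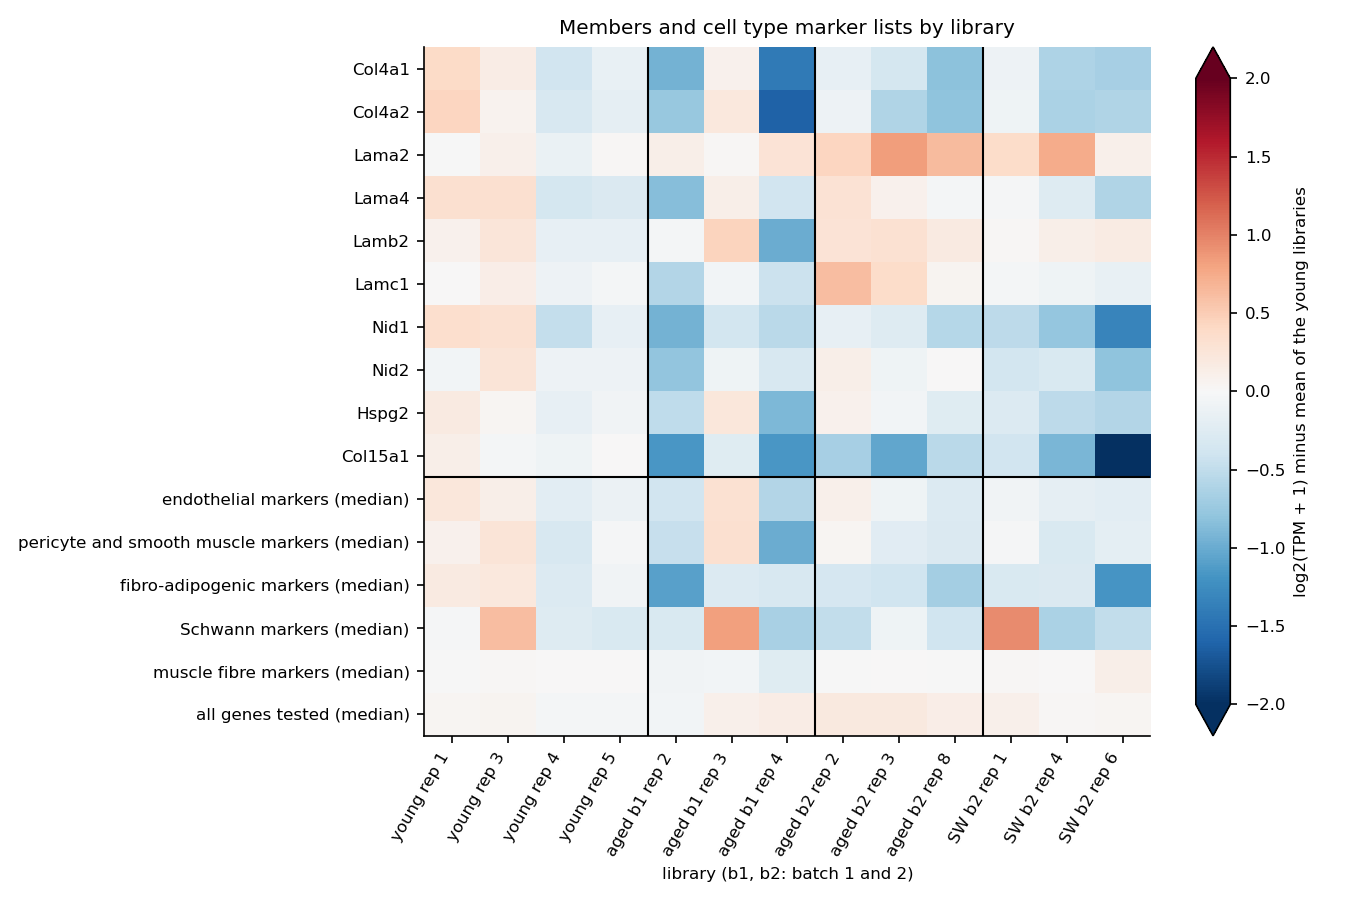
Deviation of each member from its young mean in each of the 13 libraries, in log2 units of TPM + 1, with the medians of cell type marker lists in the rows under them, and a colour range of ±2 that Col15a1 in SW033291 replicate 6 (-2.28) exceeds. Aged vehicle replicates 2 and 4 of batch 1 are low for most members, and replicate 3 of that group is close to the young libraries.

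With SW033291, no member passed the adjusted threshold, nor did any gene (0% of all genes tested). At an unadjusted p of 0.05, 10.3% of all genes passed, and 2 members, Lamc1 and Nid2. Neither passed under median-of-ratios scaling or quantile normalization, or with vehicle replicate 2 or SW033291 replicate 6 left out, and 4 members passed with SW033291 replicate 1 left out. In the authors' deposited table, a p below 0.05 stood beside 440 of 11734 genes tested here and beside none of the members. A lower mean on SW033291 than on vehicle of batch 2 was found for 9 of 10 members and for 71.1% of all genes. The members' median log2 difference was -0.40, and that of all genes was -0.13, and 8 of 10 members lay below the latter. The members' median was -0.22 without SW033291 replicate 6, with 7 of 10 lower, and -0.25 under quantile normalization and -0.27 under median-of-ratios scaling, with 8 of 10 lower in each. Relative to the median of all genes, the differences were -0.41 for Nid1, -0.37 for Nid2, -0.31 for Lamc1 and Col15a1, -0.28 for Lama4, -0.26 for Hspg2, -0.09 for Lama2, -0.02 for Lamb2, 0.12 for Col4a1 and 0.19 for Col4a2. Lamb2, Lamc1, Nid2 and Hspg2 were lower on SW033291 without overlap between the groups, as were 15.1% of all genes.

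Nid2 was at 2.65, 2.16 and 2.38 TPM on vehicle (replicates 2, 3 and 8) and at 1.6, 1.72 and 0.93 TPM on SW033291 (replicates 1, 4 and 6). Every treated library was below every vehicle library, and the log2 difference was -0.50 (SE 0.22, limma adjusted p = 0.463). Nid1 was at 11.74, 10.89 and 8.58 TPM on vehicle and at 8.9, 7.36 and 4.7 TPM on SW033291, with 1 treated library above the lowest vehicle library. For Nid1 the log2 difference was -0.54 (SE 0.26, limma adjusted p = 0.489). The 95% interval ran from -0.98 to -0.03 for Nid2 and from -1.09 to 0.01 for Nid1. In the authors' deposited table the log2 fold changes were -0.60 for Nid2 (SE 0.46, p = 0.196) and -0.45 for Nid1 (SE 0.25, p = 0.0680). For the other members the authors' deposited table gives 0.15 for Col4a1, 0.22 for Col4a2, 0.0041 for Lama2, -0.21 for Lama4, -0.014 for Lamb2, -0.31 for Lamc1, -0.25 for Hspg2 and -0.16 for Col15a1, so 3 of 10 members were above 0 there and 1 of 10 in the limma fit.

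Lamc1 was at 22.06, 18.39 and 14.65 TPM on vehicle and at 13.58, 13.19 and 12.55 TPM on SW033291. The treated libraries were close together and all below the vehicle libraries, with a log2 difference of -0.44 (SE 0.17, limma adjusted p = 0.418) and a 95% interval from -0.80 to -0.08. Hspg2 was at 19.75, 17.74 and 15.56 TPM on vehicle and at 15.14, 12.57 and 11.93 TPM on SW033291, a log2 difference of -0.40 (SE 0.22, limma adjusted p = 0.550). The highest treated library, at 15.14, was close to the lowest vehicle library, at 15.56 TPM. Lamb2 averaged 50.1 ± 2.25 TPM on vehicle and 45.0 ± 2.41 TPM on SW033291, a log2 difference of -0.15. Lama4 averaged 5.23 ± 0.708 and 3.73 ± 0.926 TPM, and Lama2 averaged 7.02 ± 1.14 and 5.95 ± 1.57 TPM. Their log2 differences were -0.41 and -0.22 (limma adjusted p = 0.590 and 0.661). Without SW033291 replicate 6 they were -0.26 and -0.071, that of Nid1 was -0.32, and without the libraries high in S100a9 that of Lama2 was -0.49.

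Collagen IV chains did not show a difference on SW033291 beyond the spread. Col4a1 was at 23.34, 20.3 and 14.47 TPM on vehicle and at 24.47, 16.77 and 16.26 TPM on SW033291. Its log2 difference was -0.013 (limma adjusted p = 0.993), with a 95% interval from -0.71 to 0.68, and it changed sign to 0.13 under median-of-ratios scaling and under quantile normalization. Col4a2 was at 22.87, 15.84 and 13.59 TPM on vehicle and at 23.07, 15.37 and 15.75 TPM on SW033291, a log2 difference of 0.057 with an interval from -0.72 to 0.83. Both intervals are wide on either side of 0. Without the 3 libraries high in S100a9 the differences were 0.21 for Col4a1 and 0.36 for Col4a2. Col15a1 had a log2 difference of -0.45 (SE 0.38, limma adjusted p = 0.672), which was 0.10 without SW033291 replicate 6. Relative to the young mean, the members' median was -0.09, -0.42 and -0.60 in SW033291 replicates 1, 4 and 6 and 0.10, -0.08 and -0.14 in vehicle replicates 2, 3 and 8. Endothelial markers summed to 171 to 216 TPM on SW033291 and 178 to 232 TPM on vehicle, with 8 of 12 lower, and those of pericytes and smooth muscle to 172 to 203 and 193 to 262 TPM. Fibro-adipogenic markers summed to 411 to 833 TPM on SW033291 and 502 to 706 TPM on vehicle. Adipocyte markers summed to 955 to 3759 and 837 to 869 TPM, with a higher mean for all 8. The 3759 TPM was in SW033291 replicate 1, and replicates 4 and 6 were at 1019 and 955 TPM. The part of these cell types in the differences was not tested.

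The aged vehicle libraries of batch 2 and of batch 1 carry the same labelled age and treatment, and are shared with the comparisons of SW033291 and of age. All 10 members had a higher mean in batch 2, as did 64.2% of all genes, with a median log2 difference of 0.37 for members and 0.11 for all genes. Without batch 1 replicate 4, 7 of 10 were higher and the members' median was 0.20, and without the 3 libraries high in S100a9 it was 0.13, as was the median of all genes, and Lamb2 went from 0.45 to 0.031. Lamc1 was the 1 member called, against 2.25% of all genes. It was at 9.03, 13.45 and 10.19 TPM in batch 1 and at 22.06, 18.39 and 14.65 TPM in batch 2, with no overlap. The log2 difference was 0.70 (SE 0.17, limma adjusted p = 0.0463), and 0.59 relative to the median of all genes. The adjusted p ran from 0.011 to 0.37 over 19 alternatives, 10 of which kept the call. Lama2 was at 4.59, 4.25 and 5.22 TPM in batch 1 and at 5.92, 8.19 and 6.95 TPM in batch 2, also without overlap, a separation found in the same direction for 11.9% of all genes. Its log2 difference was 0.49 (SE 0.18, limma adjusted p = 0.179). The pericyte and smooth muscle markers had a median log2 difference between batches of 0.10, with 7 of 10 higher. Abcc9 of that list was called (0.72, limma adjusted p = 0.047), and Acta2 and Tagln had values of -0.51 and -0.53. Of the 10 fibre markers, the myosin Myh4 was called higher (1.21, limma adjusted p = 0.0061) and the calcium buffer Pvalb lower (-0.58, limma adjusted p = 0.020) in batch 2. The part of these in the members' difference was not tested. Beside its 0.70 between batches, Lamc1 had log2 differences of -0.36 with age and -0.44 with SW033291, and each of these shares libraries with the comparison of batches.

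Ratios of partner chains did not differ beyond the spread between libraries. The ratio of Col4a2 to Col4a1 ranged from 0.780 to 1.07 over the 13 libraries, and Col4a2 was the lower of the pair in 11. It averaged 0.933 ± 0.0463 (SD, n = 4) in young and 0.959 ± 0.149 (SD, n = 3) in aged vehicle of batch 1 (exact two-sided permutation p = 0.914). On SW033291 it was 0.943 ± 0.0261 and on vehicle 0.900 ± 0.105 (exact permutation p = 0.80). The ratio of Nid2 to Nid1 ranged from 0.130 to 0.277, with means of 0.182 in young and 0.186 in aged vehicle of batch 1 (exact permutation p = 0.914). The vessel alpha chain relative to the fibre alpha chain, Lama4 to Lama2, averaged 1.17 ± 0.304 in young and 0.786 ± 0.397 in aged libraries, a log2 difference of -0.65 (exact permutation p = 0.171), and Lama4 was below Lama2 in 9 of 13 libraries. Lamb2 to Lamb1 averaged 10.1 ± 1.37 in young and 11.7 ± 4.77 in aged libraries (exact permutation p = 0.80). On SW033291 against vehicle, the log2 differences were -0.19 for Nid2 to Nid1 and -0.25 for Lama4 to Lama2 (exact permutation p = 0.40 for each). That of Lamb2 to Lamb1 was -0.26 (exact permutation p = 0.70). Benjamini-Hochberg adjustment over the 8 ratio tests gave 0.914 for each, and the smallest p these designs allow is 0.0571 for age and 0.1 for SW033291, so none could pass 0.05.

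**Figure D4:**
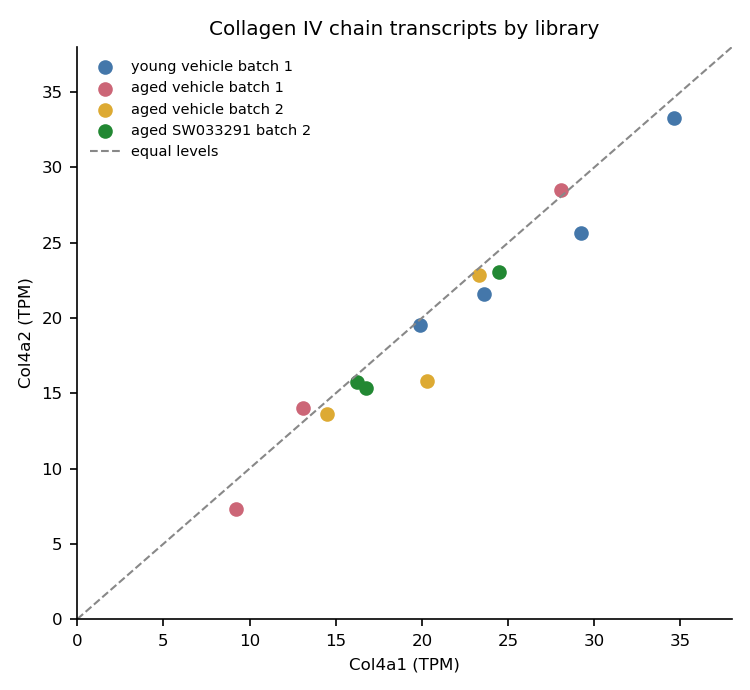
TPM of Col4a2 against TPM of Col4a1 on linear axes, 1 point per library coloured by group, with a dashed line of equal levels. The 13 points lie near the line over a range in which Col4a1 runs from 9.24 to 34.61 TPM.

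The 2 collagen IV chains were the pair of members with the most alike profiles: the root mean square difference of their centred log2(TPM + 1) values over 13 libraries was 0.116. Lama4 and Nid2 followed at 0.188, and Lama2 and Col15a1 were farthest apart at 0.785. Hspg2 lay nearest the members' mean profile at 0.111 and Col15a1 farthest at 0.455, where each member is itself part of that mean. Among genes outside the list, those most like this mean profile were Fbln2 (0.122), which encodes fibulin 2, Arhgef7 (0.130), Man2b1 (0.131), Tmem63a (0.132), Slit3 (0.137), Myo1c (0.138), Ralb (0.139) and Crhr2 (0.142), where the median over all tested genes was 0.394. A gene with the same value in every library would lie at 0.300, nearer than that median. The members Col4a2 (0.308), Lama2 (0.429) and Col15a1 (0.455) lay farther than 0.300. These values describe likeness over 13 libraries that share batch and group, and carry no test.

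Of 30 other basement membrane genes, 14 were expressed enough to be tested, and 10 of these had a lower mean with age (median log2 difference -0.15). Sparc, a collagen-binding matricellular protein, was the 1 that fell past the threshold. It was at 176.2, 167.9, 157.5 and 160 TPM in young and at 76.32, 111.3 and 70.55 TPM in aged vehicle of batch 1. The groups did not overlap, with a log2 difference of -0.96 (SE 0.17, limma adjusted p = 0.0283). The call held in 10 of 21 alternatives, with adjusted p from 0.0040 to 0.50, and was lost without any 1 of the libraries except aged replicate 3, while the difference ran from -1.16 to -0.84. In batch 2 Sparc was at 96.74, 71.59 and 99.56 TPM on vehicle and at 96.44, 85.72 and 64.18 TPM on SW033291, where the groups overlapped. Fbln2 and the calcium-binding Smoc1 had log2 differences with age of -0.52 and -0.35 (limma adjusted p = 0.493 and 0.860). Fbln2 was at -0.25 without aged replicate 4 and -0.86 without aged replicate 3, and Smoc1 at -0.15 without aged replicate 2. Lama5 averaged 5.71 TPM in young and 5.69 TPM in aged vehicle of batch 1, Lamb1 averaged 4.26 and 3.42 TPM, and Lama1 was listed at 0 in 12 libraries. None of the 14 was called for SW033291, with 8 lower, and none for batch, with 11 higher.

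A further list held receptors of the basement membrane together with dystrophin, sarcospan and sarcoglycans. Its median log2 difference with age was -0.04, with 11 of 19 tested genes lower and none called. The values were 1.03 for the sarcoglycan Sgcd, -0.56 for the syndecan Sdc2 and 0.48 for Dmd, dystrophin (limma adjusted p = 0.559, 0.543 and 0.670). Sgcd and Dmd were high in aged replicate 4, at 48.36 and 20.48 TPM, against 5.95 and 6.31 TPM for Sgcd and 7.15 and 6.9 TPM for Dmd in the other aged libraries of batch 1, and without it their differences were 0.10 and 0.0022. On SW033291, 16 of 19 were lower and none was called. Dag1, which encodes dystroglycan, was higher in batch 2 than in batch 1 of aged vehicle, at 116 ± 6.57 against 76.8 ± 17.7 TPM (log2 difference 0.61, SE 0.14, limma adjusted p = 0.0414). In the SW033291 libraries, also of batch 2, Dag1 averaged 82.0 ± 4.24 TPM (log2 difference from vehicle -0.49, SE 0.14, limma adjusted p = 0.397).

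Collagen folding and cross-linking genes were lower with age in 15 of 20 tested, and none was called. At an unadjusted p below 0.05 were 4 genes: Serpinh1, Loxl1 and Loxl2, which were lower, and P4hb, which was higher. P4hb averaged 108 TPM in young and 134 TPM in aged vehicle of batch 1 (log2 difference 0.31, SE 0.092, limma adjusted p = 0.190). Serpinh1, the collagen chaperone HSP47, averaged 42.4 TPM in young and 24.9 TPM in aged vehicle (log2 difference -0.74, SE 0.20, limma adjusted p = 0.144). Serpinh1 was called with library weights and against aged vehicle of both batches (limma adjusted p = 0.043 and 0.019). The cross-linking enzymes Loxl2 and Loxl1 had differences of -0.64 and -0.62 (limma adjusted p = 0.380 and 0.300). On SW033291, 18 of 20 were lower and none was called. Between batches, Mia3, needed for collagen export from the endoplasmic reticulum, went from 27.3 TPM in batch 1 to 53.3 TPM in batch 2, and P4hb, a subunit of collagen prolyl hydroxylase, from 134 to 182 TPM (limma adjusted p = 0.0172 and 0.0383).

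Of 18 tested proteases and inhibitors, 12 had a lower mean with age and none was called. The procollagen protease Bmp1 had a log2 difference of -0.77, the gelatinase Mmp2 one of -0.63 and the inhibitor Timp1 one of 0.60 (limma adjusted p = 0.144, 0.553 and 0.798). Bmp1 was called without aged replicate 3 and against aged vehicle of both batches (limma adjusted p = 0.028 and 0.044). Adamts1 was called between batches, from 8.65 TPM in batch 1 to 16.0 TPM in batch 2 (limma adjusted p = 0.0383). On SW033291, 12 of 18 were lower and none was called. Among genes that build the laminin-binding glycan of dystroglycan, 9 of 15 tested had a higher mean with age and none was called, with 0.33 for Dpm3 and -0.31 for Pomt1 on the log2 scale, the latter -0.052 without aged replicate 4. On SW033291, 11 of these 15 were lower and none was called. The glycosyltransferase Large was called between batches, from 12.3 TPM in batch 1 to 18.6 TPM in batch 2 (limma adjusted p = 0.0457). Of the 5 non-member genes called between batches, Mia3 kept its call in 15 of 19 alternatives and Dag1, P4hb, Adamts1 and Large in 10 each. Under median-of-ratios scaling Mia3 alone of the 5 was called, and without batch 1 replicate 2, batch 2 replicate 2 or batch 2 replicate 3 none was.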

How the data were processed

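The 10 members were fixed by name. Members and lists were chosen with earlier results of these data known. The tools STAR, RSEM, DESeq and DESeq2 and the build mm9 are listed, without versions, per the submitters' processing notes. TPM values were deposited for 13 libraries and keep no depth, so counting error is unknown. The authors' deposited tables hold, per the file headers, a mean of normalised counts (a signal), log2 fold changes and standard errors, a test statistic (a score) and a p-value, made over libraries not stated.

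As deposited, names and values of the TPM table did not match. After 27 names turned into dates were restored and all names were sorted in byte order, mean levels and log2 differences correlated across genes at 0.960 (Spearman) and 0.928 (Pearson) with the authors' deposited table for SW033291, against -0.0176 and -0.012 as deposited. Every value rests on this order.

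Group means of log2(TPM + 1) were estimated together over all 13 libraries in 1 linear model with limma 3.58.1 in R 4.3.3 (moderated variances with a trend, two-sided, Benjamini-Hochberg over 11876 genes, threshold 0.05), after the script was tested on simulated data. Aged and young vehicle were compared within batch 1, SW033291 and vehicle within batch 2, and aged vehicle between batches. Ratios of partner chains were tested with exact permutation tests in scipy 1.17.1. From each other list, genes called in any comparison and the 3 with the largest difference with age were named, as were the 8 genes nearest the members' mean profile. Exceptions were the marker genes and Lama1, Lama5, Lamb1 and S100a9, picked after their values were seen, and 1 gene that this rule names is not reported here. Alternatives were other pseudocounts, filters, scalings, models and subsets of libraries. Start regions came from RefSeq on GRCm38.p6, not the authors' build.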

Additional observations from a re-analysis of the deposited data

Results flagged for a closer look

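Nid2 in the young vehicle libraries had 1 library far from the others: replicate 3 was at 3.05 TPM, and the other libraries were at 2.14, 2.14 and 2.23 TPM. The gap was 0.901 of the group's range, above Dixon's 95% critical value for 4 libraries. Chance gives such a gap in about 1 in 20 groups, and 10 members were examined in this group.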

How the results depend on the processing

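Depth is unknown for TPM values, and 3 or 4 libraries per group set the precision of each difference. For age, the 54 genes called (44 higher, 10 lower) were 27 with no filter, 31 with no variance trend, 28 with a fit of only both groups, 361 with library weights and 297 against aged vehicle of both batches. The split was 36 higher and 20 lower under median-of-ratios scaling, 41 and 30 under quantile normalization and 37 and 28 with the 20 highest genes left out. Leaving out 1 library gave 19 (young replicate 1) to 94 (aged replicate 4) genes. No member was called in any of these. Members at an unadjusted p below 0.05 numbered 0 with the replicate block. Lamb2 turned to 0.21 without the 3 libraries high in S100a9, to 0.17 with library weights and to 0.030 against both batches, and ranged from -0.51 to 0.21 without 1 library. For SW033291, the 0 genes called became 4 with a pseudocount of 0.1, 1 with no variance trend, 3 without the libraries high in S100a9 and 0 to 1 without 1 library. Col4a1 was 0.13 under median-of-ratios scaling, 0.13 under quantile normalization, 0.032 with the 20 highest genes left out, 0.21 without the libraries high in S100a9 and -0.20 to 0.13 without 1 library. Col4a2 was -0.041 with library weights, 0.36 without the libraries high in S100a9 and -0.12 to 0.26 without 1 library. Col15a1 was -0.85 to 0.10 without 1 library.

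Between batches, the 1 member called, Lamc1, became 0 with no filter, median-of-ratios scaling, quantile normalization, no variance trend and a fit of only both groups, and 0 to 1 without 1 library, the call being lost without batch 1 replicate 2 or batch 2 replicate 2 or 3. Without the libraries high in S100a9 the 1 member called was Lama2 (limma adjusted p = 0.045) in place of Lamc1. The 267 genes called (204 higher, 63 lower) were 144 under median-of-ratios scaling (46 higher, 98 lower), 98 under quantile normalization, 112 with no variance trend, 1 with only both groups, 1088 without the libraries high in S100a9, 1766 with library weights and 18 to 1647 without 1 library. The members' median was 0.20 to 0.66. Without the libraries high in S100a9, Col4a1 was -0.16, Col4a2 -0.43, Hspg2 -0.0059 and Col15a1 -0.082. With library weights Col4a2 was -0.024 and Col15a1 -0.013. Without 1 library, Col4a1 was -0.016 to 0.74, Col4a2 -0.22 to 0.69 and Col15a1 -0.042 to 0.42. The log2 ratios without 1 library were, for age, -0.058 to 0.16 (Col4a2 to Col4a1), -0.11 to 0.19 (Nid2 to Nid1) and -0.14 to 0.51 (Lamb2 to Lamb1), and for SW033291, -0.026 to 0.14 and -0.56 to 0.080 for the first and last of these. Nid2 to Nid1 on SW033291 went from -0.19 to 0.036 with a pseudocount of 1. Nid2 was not tested at a filter of 5 TPM. The cause of these changes was not tested.

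Replicate numbers shared by groups of different age or batch number 2 in each comparison, and same-numbered libraries had deviations correlated at 0.171 and 0.0401 (age) and -0.147 and -0.0597 (batch). Pairs with different numbers ran from -0.257 to 0.283 (age) and from -0.185 to 0.192 (batch). With 2 pairs per comparison, these values cannot show whether the numbers mark a pairing. With the replicate block, 4 genes were called for age and 2447 between batches, where Lamc1 kept its call (limma adjusted p = 0.011), Col4a2 was -0.070 and Col15a1 -0.15. No paired analysis was possible because SW033291 and its vehicle share no number.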
